A study of Mus musculus with 5 samples.

Results

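The cathepsins B, D, L, S, C and Z (Ctsb, Ctsd, Ctsl, Ctss, Ctsc and Ctsz), the lysosomal membrane proteins Lamp1 and Lamp2 and the transcription factor Tfeb were followed in peritoneal lavage cells of mice. All probes that the array annotation ties to these 9 genes through a RefSeq transcript were taken, which gave 11 of the 55681 probes on the array and 9 of 20121 named genes with a value on every array. Ctsd and Lamp2 each had 2 probes. Female BALB/c mice were injected into the peritoneum and their lavage cells were collected 2 h later. There were 5 injections: OVA (ovalbumin, 25 µg) with alum (an aluminium salt adjuvant, 200 µg), called OVA+Alum, then OVA (25 µg) with AEPS (a polysaccharide from Actinidia eriantha roots, 50 µg), called OVA+AEPS, then AEPS alone (50 µg), OVA alone (25 µg) and PBS. Each injection had 1 array, so there is no spread between animals to test against and no p-value is given. Whether an array held RNA of 1 mouse or of several is not given in the sources used here.

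Lysosomes are acidic organelles in which phagocytes break down what they take up. Cathepsins are their proteases: D is an aspartic protease and B, L, S, C and Z are cysteine proteases, and S also trims the invariant chain of class II molecules for antigen presentation. LAMP1 and LAMP2 are heavily glycosylated proteins of the lysosomal membrane, and LAMP2 also takes part in autophagy. TFEB drives transcription of many lysosomal and autophagy genes by binding an E-box with the core letters CACGTG. Particulate adjuvants such as alum are known to disturb the lysosomes of phagocytes that swallow them, and cathepsin B released in that way has been linked to the NLRP3 inflammasome.

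The upstream windows of the 2 members that carry more than 1 copy of this core are shown, since Tfeb itself is among the genes followed. RefSeq promoter windows of assembly GRCm38.p6, 250 bases before a gene's start, were held for 8 of the 9 members. CACGTG, which reads the same on both strands and was the only motif searched, was found in the windows of 3 members, Ctsd, Ctsl and Lamp1. It was found in 6.02% of all 32851 windows of the same length. The letters were not in the windows of Ctss, Ctsc, Ctsz, Lamp2 or any of the 3 windows of Tfeb. The Ctsc window and 2 of the Tfeb windows overlap the annotated gene. A match describes the letters of a window and not a bound site. The Ctsd window, on the minus strand of chr7:142387828-142388077, had matches starting 245 and 98 bases before the start, and the Lamp1 window, on the plus strand of chr8:13158911-13159160, had 4 matches starting 61, 45, 28 and 15 bases before it. The single match of Ctsl started 236 bases before its start, in a window that overlaps the annotated gene and is not shown. Both sequences run 5′ to 3′ with the core in capitals.
Ctsd: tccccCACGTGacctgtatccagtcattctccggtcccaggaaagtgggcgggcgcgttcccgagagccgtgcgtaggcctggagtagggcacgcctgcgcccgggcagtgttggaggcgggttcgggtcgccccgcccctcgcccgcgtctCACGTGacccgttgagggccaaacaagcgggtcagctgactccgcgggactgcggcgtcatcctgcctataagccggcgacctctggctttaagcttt
Lamp1: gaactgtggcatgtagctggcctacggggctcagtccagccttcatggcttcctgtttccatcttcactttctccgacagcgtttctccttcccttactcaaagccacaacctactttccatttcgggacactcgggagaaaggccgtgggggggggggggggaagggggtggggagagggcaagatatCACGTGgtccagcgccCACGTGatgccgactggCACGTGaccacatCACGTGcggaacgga

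Levels are given as log2 of the background-subtracted signal over the 75th percentile of the same array, so that a level of 0 equals that percentile. They set arrays against each other for 1 probe and do not rank genes. Differences are OVA+Alum minus the other array on the log2 scale, with a technical standard error (SE) from the scanner's error model of 0.204 (0.205 for Tfeb against OVA+AEPS). That error leaves out the variation between mice and between arrays. It was nearly the same for every member, and it comes from the model and not from repeats of these probes. For probes with repeated spots, the median standard deviation between spots was 0.0426 to 0.0598 (log2) by array. Lying within 1 technical SE therefore does not show that levels are equal. A gene was called different at 2-fold or more. All 11 probes were well above background on all 5 arrays. The 5 arrays shared 1 slide. PBS lay in its row 1 and the other arrays in row 2, and OVA+Alum and PBS both lay in column 4. Position on the slide and injection cannot be told apart.

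Across the 9 members, levels on the OVA+Alum array were mostly below those on the other arrays. Their median difference was -0.35 against OVA, -0.41 against OVA+AEPS, -0.34 against AEPS and -0.63 against PBS, beside medians over all genes of 0.08, 0.06, 0.07 and -0.06. With arrays scaled to spike-in probes, the member median was -0.714 against AEPS and -0.35 against PBS, beside all-gene medians of -0.305 and 0.22. Negative differences numbered 7 of 9 against OVA (41.6% of all genes tested), 8 of 9 against OVA+AEPS (45.6%), 8 of 9 against AEPS (44.3%) and 7 of 9 against PBS (55.4%). Over the settings tried, the count stayed at 7 against OVA. It was 7 or 8 against OVA+AEPS, 6 to 8 against AEPS and 5 to 8 against PBS. The sizes were modest. None of the 9 was at least 2-fold lower in any of these 4 comparisons (5.45% of all genes against OVA, 6.76% against OVA+AEPS, 6.66% against AEPS and 5.15% against PBS). Spike-in scaling put 3 members at least 2-fold lower against AEPS (Ctsl, Ctss and Lamp2). At 1.5-fold, 2 members were lower against OVA (11.5% of all genes), 3 against OVA+AEPS (14.1%), 3 against AEPS (14.0%) and 5 against PBS (14.2%). The only member at least 2-fold higher on the OVA+Alum array was Tfeb, against OVA+AEPS (the share of all genes called higher was 6.44%) and against AEPS (6.67%), while against OVA (4.14%) and PBS (6.45%) there was none. At 1.5-fold Tfeb was again the only one higher, against OVA+AEPS (16.4%) and AEPS (17.5%), with none against OVA (11.8%) or PBS (13.4%).

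**Figure D1:**
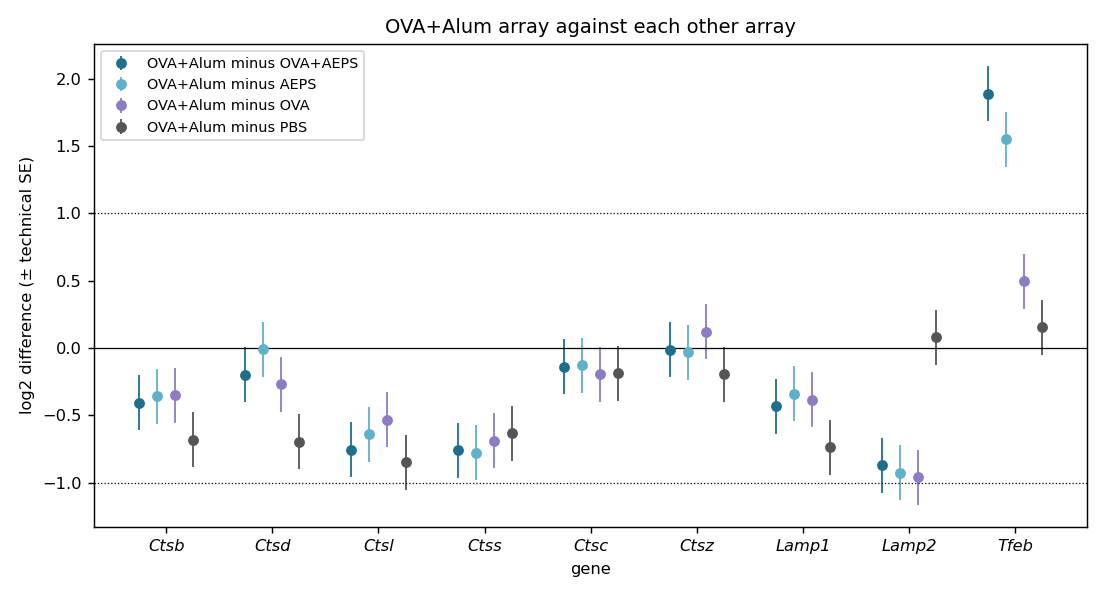
Log2 difference of each member, OVA+Alum minus each other array, with bars of 1 technical SE (0.204). Lamp2 lies near -0.9 against 3 arrays and near 0 against PBS, and Tfeb is the only gene above 1.

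Ctss and Ctsl were the proteases with the widest gap between the OVA+Alum array and the rest. Ctss, cathepsin S, stood at 7.29 on the OVA+Alum array, 8.05 on OVA+AEPS, 8.06 on AEPS, 7.97 on OVA and 7.92 on PBS (probe A_55_P2024888). With this scaling, the 4 other arrays lay within 0.143 of each other, less than 1 technical SE. The OVA+Alum array was 0.633 below the lowest of them. The differences of Ctss were -0.69 ± 0.204 against OVA, -0.76 against OVA+AEPS, -0.78 against AEPS and -0.63 against PBS. With spike-in scaling they were -0.70, -0.93, -1.15 and -0.35 in the same order, so the other arrays lay further apart and PBS nearest. The level on the OVA array was 1.61-fold that on the OVA+Alum array.

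Ctsl, cathepsin L, stood at 5.97 on the OVA+Alum array, 6.73 on OVA+AEPS, 6.61 on AEPS, 6.50 on OVA and 6.82 on PBS (probe A_51_P253547). Here too OVA+Alum was the lowest array, by more than 2 technical SEs. Its differences were -0.53 against OVA, -0.76 against OVA+AEPS, -0.64 against AEPS and -0.85 against PBS. Among all 13677 genes well above background on every array, 4.56% were lowest on OVA+Alum by that margin. Ctss passed 2-fold against AEPS when arrays were scaled to spike-in probes (-1.15), as did Ctsl (-1.02). With normexp background correction and quantile normalization the differences against AEPS were smaller, -0.54 for Ctss and -0.46 for Ctsl.

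Ctsb, cathepsin B, stood at 7.60 on the OVA+Alum array, 8.01 on OVA+AEPS, 7.96 on AEPS, 7.95 on OVA and 8.28 on PBS (probe A_51_P465148). OVA+Alum was lowest and PBS highest, and the 3 arrays between them lay within 1 technical SE of each other. The differences of Ctsb were -0.35 against OVA, -0.41 against OVA+AEPS, -0.36 against AEPS and -0.68 against PBS. With spike-in scaling they were -0.36, -0.58, -0.73 and -0.40 in the same order, so AEPS and not PBS was highest.

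Ctsd, cathepsin D, stood at 7.67 on the OVA+Alum array, 7.87 on OVA+AEPS, 7.68 on AEPS, 7.94 on OVA and 8.37 on PBS (probe A_51_P384629). PBS stood apart as the highest, and OVA+Alum and AEPS were level. The differences were -0.27 against OVA, -0.20 against OVA+AEPS, -0.01 against AEPS and -0.70 against PBS. With spike-in scaling they were -0.28, -0.37, -0.38 and -0.41 in the same order, so PBS no longer stood apart. In the deposited table the difference of Ctsd against AEPS was 0.12. Its dimmer probe (A_65_P13209) stood at 3.99 on OVA+Alum, 4.01 on OVA+AEPS, 3.71 on AEPS, 4.18 on OVA and 4.64 on PBS. In these levels both probes had PBS highest, but the dimmer one was lowest on AEPS.

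Ctsc and Ctsz varied least. Ctsc, the dipeptidyl peptidase that activates the serine proteases of neutrophil granules, stood at 5.22 on the OVA+Alum array, 5.36 on OVA+AEPS, 5.35 on AEPS, 5.42 on OVA and 5.41 on PBS (probe A_52_P195839). Its whole range of 0.196 was below 1 technical SE, and its difference against PBS, -0.19, changed sign with spike-in scaling (0.09). Ctsz, cathepsin Z, stood at 7.43 on the OVA+Alum array, 7.45 on OVA+AEPS, 7.47 on AEPS, 7.31 on OVA and 7.63 on PBS (probe A_51_P256202). Its differences of 0.12 against OVA and -0.20 against PBS were both within 1 technical SE, and those against OVA+AEPS, AEPS and PBS changed sign with the scaling.

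Lamp1 followed Ctsb in its order of extremes. It stood at 7.69 on the OVA+Alum array, 8.13 on OVA+AEPS, 8.03 on AEPS, 8.08 on OVA and 8.43 on PBS (probe A_55_P2059342). The differences of Lamp1 were -0.39 against OVA, -0.43 against OVA+AEPS, -0.34 against AEPS and -0.74 against PBS. With spike-in scaling they were -0.40, -0.61, -0.71 and -0.45 in the same order, so here too AEPS and not PBS was highest. Taken over the members, 6 of 9 were lowest on the OVA+Alum array (Ctsb, Ctsd, Ctsl, Ctss, Ctsc and Lamp1), beside 21.3% of all genes, with the sign changes of Ctsd and Ctsc given above. By more than 1 technical SE there were 4 (Ctsb, Ctsl, Ctss and Lamp1), beside 9.5%. On the PBS array, 5 of 9 were highest, beside 38.0% of all genes.

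**Figure D2:**
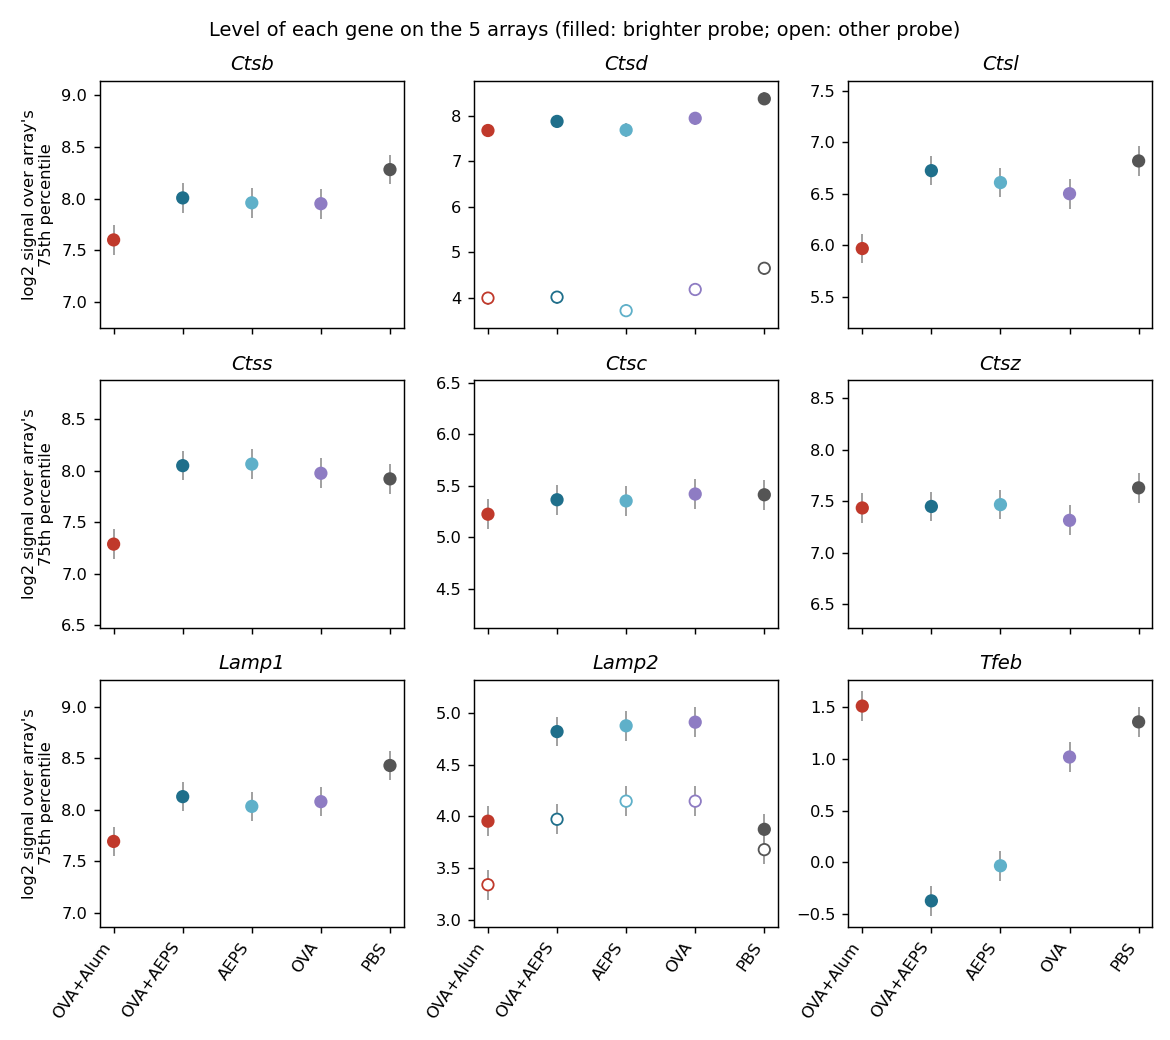
Log2 level over the array's 75th percentile for each of the 11 probes on the 5 arrays, with bars of 1 technical SE of a level (0.144); each panel has its own vertical axis. On this scale Ctss is low on OVA+Alum alone, Lamp2 on OVA+Alum and PBS, and Tfeb on both arrays with AEPS.

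Lamp2 and Tfeb were the 2 members that spanned at least 2-fold over the 5 arrays, beside 25.9% of all genes, and they did so in different ways. Lamp2 stood at 3.95 on the OVA+Alum array, 4.82 on OVA+AEPS, 4.88 on AEPS, 4.91 on OVA and 3.88 on PBS (probe A_52_P483280). OVA+Alum and PBS were within 1 technical SE of each other, as were the other 3 arrays, and the nearest arrays of these pairings were 0.869 apart. The differences of Lamp2 were -0.96 against OVA (OVA was 1.95-fold higher), -0.87 against OVA+AEPS, -0.93 against AEPS and 0.08 against PBS. The difference against OVA lay at the 2-fold line, with -1.03 to -0.89 over all settings tried, and that against PBS was 0.36 with spike-in scaling and -0.13 when the median of both probes stood for the gene.

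A second Lamp2 probe, assigned to another transcript of the gene (A_55_P2102126), stood at 3.34 on OVA+Alum, 3.97 on OVA+AEPS, 4.15 on AEPS, 4.15 on OVA and 3.68 on PBS. The order was shared in that OVA+Alum and PBS were the lower arrays. Its differences were -0.81 against OVA, -0.64 against OVA+AEPS, -0.81 against AEPS and -0.34 against PBS. OVA+Alum and PBS are the arrays in column 4 of the slide. Both were below the other 3 arrays in 2 members (Lamp2 and Ctss) and in 14.4% of all genes.

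Tfeb stood at 1.51 on the OVA+Alum array, -0.38 on OVA+AEPS, -0.04 on AEPS, 1.02 on OVA and 1.36 on PBS (probe A_55_P1997898). The background-subtracted signals before scaling were 1200.4 on OVA+Alum, 306 on OVA+AEPS, 403 on AEPS, 886 on OVA and 861 on PBS. Both arrays with AEPS were low and the 3 without it were high. The differences of Tfeb were 0.49 ± 0.204 against OVA, 1.89 against OVA+AEPS, 1.55 against AEPS and 0.15 against PBS.

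AEPS was set against its own references for the same gene. Tfeb was -1.40 in OVA+AEPS minus OVA, where 3.64% of all genes were called lower and 4.08% higher. It was likewise -1.40 in AEPS minus PBS, where 6.89% were called lower. Being at least 2-fold below the other 3 arrays on both AEPS arrays, a pattern chosen after its values were seen, held for 67 of 13677 genes (0.49%). Lamp2 was 1.004 in AEPS minus PBS, where 8.7% of all genes were called higher, and 1.04 in OVA minus PBS, where 6.67% were called higher and 4.08% lower. No other member reached 2-fold in these 3 comparisons. OVA and PBS also serve as references for OVA+Alum, so these values are not independent of those above.

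**Figure D3:**
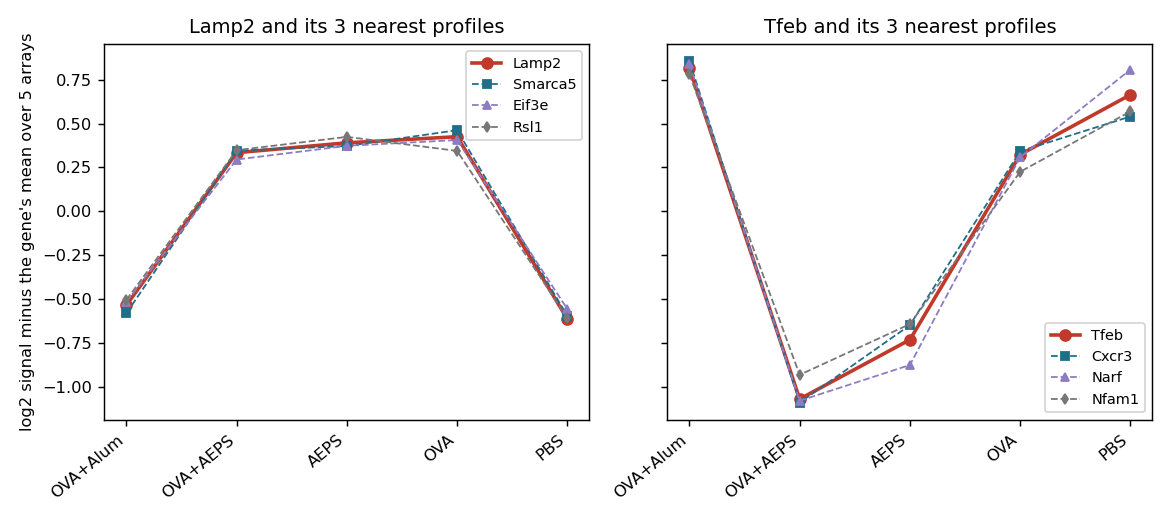
Array-centred log2 level (each gene minus its mean over the 5 arrays) of Lamp2 and Tfeb with the 3 genes closest to each; lines join the points of 1 gene and imply no order of arrays. The Lamp2 profile is low on OVA+Alum and PBS, and the Tfeb profile on OVA+AEPS and AEPS.

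Of 13676 other genes above background on all 5 arrays, the closest to Lamp2 by root mean square difference of array-centred levels were Smarca5 (0.0288), Eif3e (0.0338) and Rsl1 (0.042), over 5 arrays. Smarca5 encodes a chromatin remodelling ATPase, Eif3e a subunit of a translation initiation factor. The closest to Tfeb were Cxcr3 (0.0697), a chemokine receptor, Narf (0.0918) and Nfam1 (0.0977), a receptor with an immunoreceptor signalling motif. With 5 points, such closeness is a description only.

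The wider lysosomal gene lists had medians nearer to 0 against OVA than the members did. Of 8 other cathepsins, none was 2-fold different against OVA and the median was -0.04. Of all genes, 4.14% were called higher and 5.45% lower against OVA. Among these, Ctsk, the osteoclast collagenase, was 0.68, Ctsf, another cysteine protease, was -0.63, and Ctse, an aspartic protease, was 0.40. Of 8 placental cathepsins, only Cts7 (-1.08) and Ctsm (0.72) were above background on an array, and their median was -0.18. The 35 acid hydrolases had a median of -0.05 with 1 at least 2-fold lower (5.45% of all genes). It was the lysosomal acid phosphatase Acp2 (-1.08), followed by the acid ceramidase Asah1 (-0.78) and the beta-hexosaminidase subunit Hexa (-0.58). Against PBS, the hydrolase median was -0.37, beside -0.06 over all genes. Of the 35, 26 were below 0 (55.4% of all genes) and 3 at least 2-fold lower (5.15%).

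The 20 measured lysosomal membrane proteins had a median of 0.10 against OVA with none 2-fold different (4.14% of all genes higher and 5.45% lower). They were led by the peptide transporter Abcb9 (0.76), the cystine exporter Ctns (0.73) and the amino acid sensor Slc38a9 (0.68). The 16 subunits and helpers of the vacuolar proton pump had a median of 0.09, with Atp6v0a1 at 0.40, Atp6v1b2 at 0.38 and Atp6v1c1 at 0.33. Neither list reached a median below 0 against OVA, OVA+AEPS or AEPS. The 10 measured cathepsin inhibitors had a median of 0.19, with the stefins Stfa1 at 1.06 and Stfa3 at 0.96 and the serpin Serpinb6a at -1.06. Stefin genes form a family of close copies, so their probes may not tell them apart.

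Genes linked to TFEB gave no single direction against OVA. The median of 16 measured relatives and regulators was 0.02. Of these, 1 was at least 2-fold higher (4.14% of all genes) and 1 at least 2-fold lower (5.45%). Tfec, a member of the same factor family, was -1.69, while Flcn (folliculin) was 0.905 and its partner Fnip2 1.15. Against PBS, Tfec was -0.28, Flcn 0.68 and Fnip2 1.26. The 16 autophagy genes had a median of 0.31 against OVA, 0.39 against OVA+AEPS, 0.38 against AEPS and 0.17 against PBS. Below 0 were 3, 1, 1 and 5 of them in this order, beside 41.6%, 45.6%, 44.3% and 55.4% of all genes. The cargo receptor Sqstm1 was 0.78 against OVA, the kinase Ulk1 0.70 and the tethering subunit Vps11 0.56.

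The 12 measured genes of the response to lysosome damage had a median of 0.05 against OVA, with Trim16 at 0.53, the ESCRT-associated Pdcd6ip at 0.42 and the ATPase Vps4a at 0.26. Of 9 inflammasome genes, 3 were at least 2-fold lower against OVA (5.45% of all genes) and the median was -0.36. Against PBS, however, the median was -0.02, with 1 at least 2-fold lower (5.15%) and 1 higher (6.45%). Against OVA, Casp4 was -1.72, Casp1 -1.72 and the adaptor Pycard -1.004, and against PBS they were 0.39, -0.59 and -1.81. These caspases and this adaptor act in inflammasome signalling. Cathepsin B has been linked to the NLRP3 inflammasome. Nlrp3 itself was 0.52 against OVA and 0.35 against PBS, but -0.21 against OVA+AEPS and -0.30 against AEPS. Against OVA, 6 of the 9 listed genes were below 0 (41.6% of all genes).

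**Figure D4:**
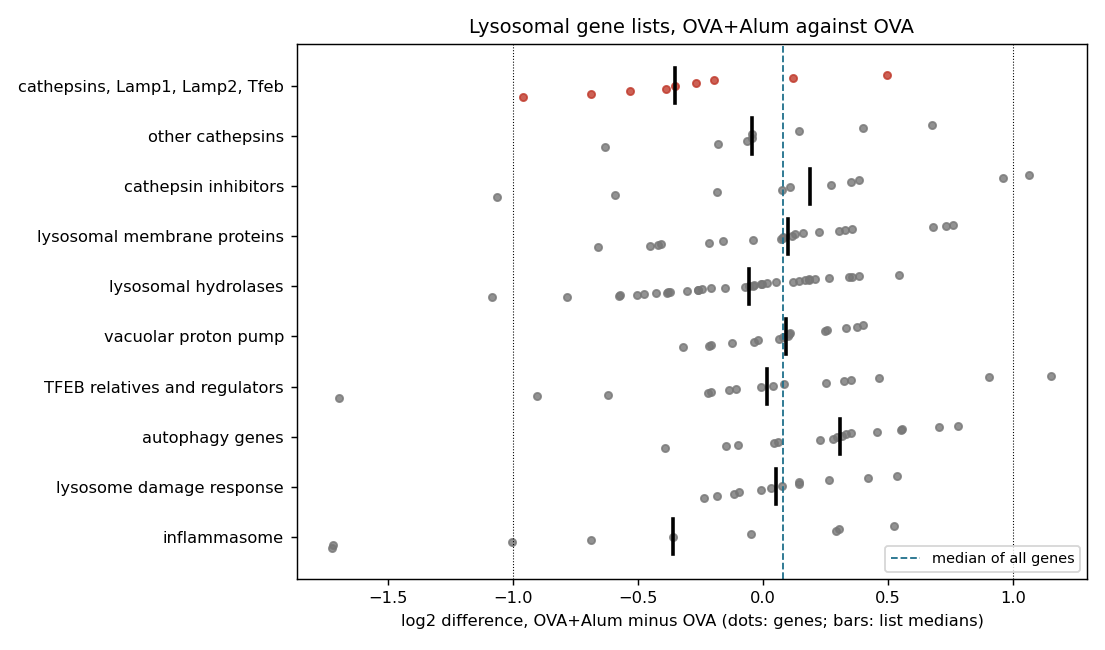
Log2 difference OVA+Alum minus OVA for every gene above background in each lysosomal or related list, each point 1 gene and each bar the list median; the placental cathepsins are left out. The 9 members have the median -0.351, the 16 autophagy genes 0.307.

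Markers of resident macrophages were also lower on the OVA+Alum array. In the lavage, a bulk mixture, fewer cells of a type and less RNA per cell cannot be told apart. All 12 markers of large peritoneal macrophages were measured. Against OVA all 12 were below 0 (41.6% of all genes) and 4 were at least 2-fold lower (5.45%). Gata6, the defining transcription factor of these macrophages, was -1.14, the adhesion molecule Icam2 -0.71 and the phagocytic receptor Timd4 -1.26. The list median was -0.80 against OVA, -0.97 against OVA+AEPS, -0.67 against AEPS and -1.16 against PBS. The summed scaled signal of the list was 937 on OVA+Alum, 1514 on OVA+AEPS, 1414 on AEPS, 1393 on OVA and 1606 on PBS. Such a sum is weighted to the brightest probes of a list. Gata6 was as low on OVA+AEPS (0.83) and AEPS (0.81) as on OVA+Alum (0.82), against 1.96 on OVA and 2.20 on PBS. The part of these cells in the cathepsin levels was not tested.

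Neutrophil markers mostly went the other way. Of 12 listed, 11 were measured, and none was below 0 against OVA (41.6% of all genes) or PBS (55.4%). Below 0 were 1 of the 11 against OVA+AEPS (45.6% of all genes) and 3 against AEPS (44.3%). The median of the 11 markers was 0.63 against OVA, 0.45 against OVA+AEPS, 0.15 against AEPS and 2.39 against PBS. Their summed scaled signal was 2312 on OVA+Alum, 2121 on OVA+AEPS, 2365 on AEPS, 1967 on OVA and 1246 on PBS. This sum is weighted to the brightest probes, here those of S100a8 and S100a9, and does not stand for the list evenly. The chemokine receptor Cxcr2 was 1.21 against OVA, whereas the calprotectin genes S100a8 and S100a9 were 0.05 and 0.14. None of the 8 mesothelial and stromal markers was below 0 against OVA (41.6% of all genes), and their median was 1.44. Among them were Msln (1.29), Upk3b (2.13) and Krt19 (1.41). Their summed signal was 11.6 on OVA+Alum, 6.34 on OVA+AEPS, 6.80 on AEPS, 4.59 on OVA and 4.28 on PBS. Their part in the member levels was not tested either.

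The other marker lists ran in both directions against OVA. Medians were -0.40 for 7 inflammatory monocyte markers, 0.06 for 9 markers of small peritoneal macrophages and dendritic cells, 0.36 for 7 B cell markers and 0.07 for 7 T and NK cell markers. They were -0.27 for 8 mast cell markers, of which Kit was 0.20, Cpa3 -2.40 and Fcer1a -1.16. Against PBS the mast cell median was 0.07, with Kit at 0.34, Cpa3 at -0.20 and Fcer1a at 0.47. The median against OVA was -0.29 for 5 eosinophil markers, with Siglecf at -0.29, Prg2 at 0.29 and Epx above background on no array. The 6 measured genes of red cells and platelets had a median of 1.18 against OVA and -0.80 against AEPS. Against OVA, 4 were at least 2-fold higher (4.14% of all genes). The haemoglobin genes Hba-a1 and Hbb-bs were 1.11 and 1.25 against OVA, and the haem synthesis gene Alas2 was 1.63.

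**Figure D5:**
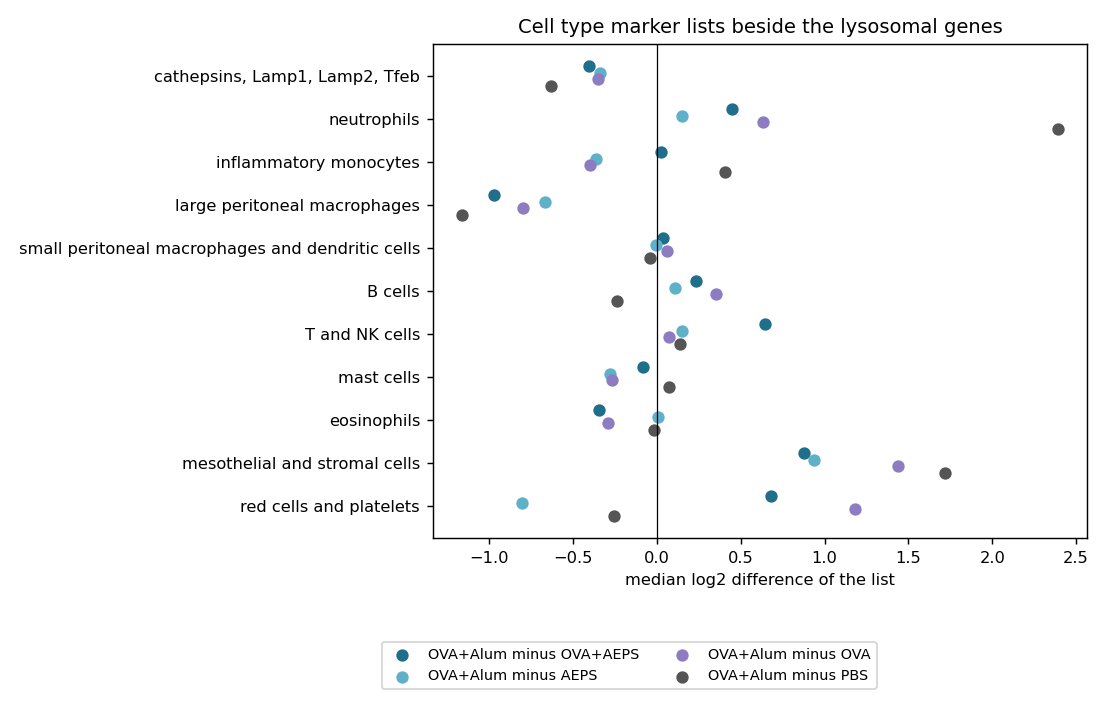
Median log2 difference of each cell type marker list, OVA+Alum minus each other array, with the 9 members in the top row. Large peritoneal macrophage markers lie between -1.16 and -0.665 and neutrophil markers between 0.15 and 2.39.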

How the data were processed

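Total RNA of lavage cells was labelled with Cy3 and hybridised to single-colour Agilent arrays (design 028005), 1 per injection. The authors deposited scanner files from Agilent Feature Extraction 10.7.1.1, whose processed signal is a background-subtracted linear intensity per the file headers. The authors' deposited value table holds log2 values with the same median, 4.66, in all 5 columns, and each column had a correlation of at least 0.9998 with that array's log2 signal. The deposited files also hold other values of 0 or 1, the flags for control spots, outliers and signal above background.

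Each array had 62976 spots. The 3671 control spots and 134 to 219 outlier spots per array were left out, none was saturated, and 56.8% to 60.0% of probes were well above background. The number of arrays limits the precision. Log2 processed signals were reduced by the array's 75th percentile, and spots of a probe were averaged. Probes were named through RefSeq transcripts of GRCm38.p6. Of 55681 probes, 26582 had 1 symbol and 29099 none, which leaves these unnamed here. The brightest probe stood for a gene. A gene entered a comparison when well above background on at least 1 of its arrays.

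The SE of a difference combines the scanner's error estimates of both arrays. Without replicates no test was made. The calling step was tested on simulated data. Named were all members with every probe, in each pathway list up to 3 genes with the largest difference between OVA+Alum and OVA among those above background on both arrays, and the first 3 genes of cell type lists where values are given singly. For members spanning 2-fold, the 3 most similar genes were named, and Nlrp3 was named in addition. The members and lists were chosen with earlier results of these data known. Of 253 listed genes, 8 had no named probe. Alternatives covered scaling, background correction (normexp with offset 50), the deposited table, filters, the probe rule and a 1.5-fold threshold. Python 3.11.15, numpy 2.4.6, pandas 2.3.3, matplotlib 3.10.9, R 4.3.3 and limma 3.58.1 were used.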

Additional observations from a re-analysis of the deposited data

Results flagged for a closer look

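The difference of Ctsl between arrays with and without AEPS had opposite signs in the presence and absence of OVA. It was 0.22 ± 0.204 in OVA+AEPS minus OVA and -0.21 ± 0.204 in AEPS minus PBS (technical SE), a gap of 0.433. With 1 array per injection this gap was not tested.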

How the results depend on the processing

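Of 288 member differences recomputed under 8 other settings, 267 moved by less than 1 technical SE and 21 by more, and 8 crossed the 2-fold line. Settings that changed only the background filter could not move a member, since all 9 were well above background on every array. The probe rule could move only Ctsd and Lamp2, the members with a second probe. The 267 therefore include values that were fixed in advance. No difference larger than 1 technical SE in the setting reported changed sign, while smaller ones did (Ctsc, Ctsz and Lamp2 against PBS, Ctsz against OVA+AEPS, and Ctsd and Ctsz against AEPS). Between 6 and 8 of the 9 members stayed below the median of all genes in each comparison and setting. The count of members at least 2-fold different against OVA was 0, and 1 (Lamp2, lower) after quantile normalization, after normexp and in the deposited table. Against OVA+AEPS it was 1, and 2 with spike-in scaling. Against AEPS it was 1, and 2 with normexp and 4 with spike-in scaling. A 1.5-fold threshold gave 2, 4, 4 and 5 members against OVA, OVA+AEPS, AEPS and PBS. With spike-in scaling, from 8 of 10 spike-in probes, the member median was -0.714 against AEPS and -0.35 against PBS. Spike-in scaling gave medians over all genes of 0.0712, -0.115, -0.305 and 0.22 in the order above. It shifts all genes of an array alike, so the member median minus the all-gene median, -0.433, -0.466, -0.409 and -0.57, is the same by construction. Scaling to array medians gave all-gene medians of 0.16 against OVA+AEPS and 0.133 against AEPS.

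All genes at least 2-fold different numbered 1443, 1978, 1993 and 1749 in the same order, 506, 952, 916 and 779 with normexp, and 3510, 4567, 4698 and 4158 at 1.5-fold. The share that was higher in OVA+Alum was 43.2%, 48.8%, 50.0% and 55.6%. It was 27.7% against OVA and 65.9% against PBS with normexp, 67.1% against PBS with array medians, and 33.6%, 19.5% and 78.2% against OVA+AEPS, AEPS and PBS with spike-ins. The cause was not tested. Naming by RefSeq accession alone was not run separately, because the gene name and systematic name columns differed in 0 spots. No paired analysis was possible because each injection has 1 array and the replicate numbers only name samples. One array per injection, all on 1 slide, is the main limit.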
